A study of Mus musculus with 12 samples.

Results

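The genes described here are 35 named genes of the cell cycle, 15 that act at the entry into S phase and in DNA replication (G1/S) and 20 that act in G2 and mitosis (G2/M). They were taken by gene symbol from the probe sets of a mouse gene array. Of these, 33 genes had a probe set with a single annotated symbol, 14 of the G1/S and 19 of the G2/M genes, out of 18784 genes tested. Each had 1 probe set. Pcna and Ccnb1 were not analysed here.

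RNA was measured on 12 arrays, 3 in each of 4 groups. Control embryonic stem cells (ESC) carried a scrambled shRNA and knockdown ESC carried an shRNA against Jarid1b, now named Kdm5b, a demethylase of lysine 4 of histone H3. The cells were of E14TG2a.4, a line of mouse ESC grown without feeder cells, in serum and the cytokine LIF. All 4 groups had received lentivirus of the pLKO.1 type and puromycin. Neural progenitor cells (NPC) were derived by the protocol of Bibel and colleagues, again as control and knockdown cells. The labels name 1 shRNA against Jarid1b and leave unsaid whether arrays of 1 group stem from independent transductions or cultures. P-values then measure no more than how these arrays vary, and that variation may be technical.

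Cells commit to a new round of division when cyclin-dependent kinases, that of cyclin E among them, release E2F transcription factors from repression. E2F then switches on the genes for the replication machinery. The MCM complex is the helicase that unwinds DNA, and Cdc6 and Cdt1 load it onto origins. Later in the cycle, MYBL2 (B-Myb) and FOXM1, which work with the MuvB complex, switch on the genes for mitosis, which include cyclin B, Cdk1, the Aurora and Polo kinases and the spindle checkpoint. Mouse ESC cycle fast, with a short G1 phase and high cyclin E, and neural progenitors cycle more slowly.

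Promoter sequences are shown for the members with the largest differences between ESC and NPC among those that held a motif of their class. The RefSeq table (GRCm38.p6) had a promoter for 25 of the 33 members, 12 G1/S and 13 G2/M genes. In the 250 bases before the start, both strands were searched for 3 kinds of motif. The first was an E2F motif, written as TTTCCCGC, TTTGGCGC, TTTCGCGC or TTTGCCGC, where TTTGGCGCGAAA counts as both the second and the third. The others were the CHR element TTTGAA, found in promoters of mitotic genes, and the CCAAT box. Capitals mark the matches on either strand in the sequences below, which run 5′ to 3′ on the gene's strand. They hold up to 180 bases and end at the start used for the search, except that of Mcm5. The Mcm5 sequence ends where the annotated span of the gene begins, 41 bases short of that start, so a CCAAT box 22 bases before the start is not shown.
Mcm6, chr1:128359706-128359885, minus strand: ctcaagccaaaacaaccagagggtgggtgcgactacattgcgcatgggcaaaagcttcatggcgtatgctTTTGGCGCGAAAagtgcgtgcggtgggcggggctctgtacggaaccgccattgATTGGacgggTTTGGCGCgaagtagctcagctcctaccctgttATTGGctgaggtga
Mcm5, chr8:75109329-75109467, plus strand: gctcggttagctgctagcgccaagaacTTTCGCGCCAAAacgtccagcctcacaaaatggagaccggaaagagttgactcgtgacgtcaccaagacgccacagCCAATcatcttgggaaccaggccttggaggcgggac
Cdk1, chr10:69352913-69353092, minus strand: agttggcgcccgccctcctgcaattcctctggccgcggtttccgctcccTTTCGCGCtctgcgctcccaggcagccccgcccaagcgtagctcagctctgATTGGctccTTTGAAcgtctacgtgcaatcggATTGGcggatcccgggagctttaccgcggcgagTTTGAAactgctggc
Cdc20, chr4:118437344-118437523, minus strand: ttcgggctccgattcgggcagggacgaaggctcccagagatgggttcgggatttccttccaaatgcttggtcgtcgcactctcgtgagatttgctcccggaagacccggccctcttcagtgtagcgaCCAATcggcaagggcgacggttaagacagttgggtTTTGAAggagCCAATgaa
Kif11, chr19:37376202-37376381, plus strand: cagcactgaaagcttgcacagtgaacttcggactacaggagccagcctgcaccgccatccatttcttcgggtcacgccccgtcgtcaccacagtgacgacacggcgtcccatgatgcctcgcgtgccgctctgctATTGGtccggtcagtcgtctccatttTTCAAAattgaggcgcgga
Mcm6 and Mcm5 encode helicase subunits, Cdk1 the kinase that drives mitosis, Cdc20 the activator of the anaphase-promoting complex and Kif11 the motor that separates the spindle poles. The promoter of Cdk1 holds an E2F motif as well as CHR elements. Cdc6, the other G1/S gene with a match that fell under the rule, is not shown because its window lies inside the annotated span of the gene.

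An E2F motif was found for 4 of the 12 G1/S genes (33.3%), namely Mcm5, Mcm6, Mcm7 and Cdc6. It was found for 1 of the 13 G2/M genes (7.69%), and for 2.16% of the 27025 genes in the table. A CHR element was found for 6 of the 13 G2/M genes (46.2%), for 1 of the 12 G1/S genes (8.33%), Mcm2, and for 18.3% of all genes. The G2/M genes with one were Cdk1, Cdc20, Kif11, Ccnb2, Mki67 and Top2a. A CCAAT box was found for 10 of 13 G2/M genes (76.9%), 7 of 12 G1/S genes (58.3%) and 37.5% of all genes. These matches describe letters in a window and say nothing of binding.

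Kdm5b, the targeted gene, measured 12.25, 12.47 and 12.50 in control ESC and 10.64, 10.90 and 10.50 in knockdown ESC, on the log2 scale used for all values. The change was -1.73 ± 0.11 (SE, limma adjusted p = 1.82e-05), and in NPC it was -0.76 ± 0.11 (SE, limma adjusted p = 0.00524). ESC markers were lower in NPC than in ESC for 9 of 9 genes in both control and knockdown cells, and neural progenitor markers were higher for 9 of 9. Neuronal markers were higher in NPC for 10 of 11 genes, with list means of 10.06 to 10.24 in control NPC and 8.36 to 8.48 in control ESC. Both progenitor and neuronal genes were thus higher on the NPC arrays. Endothelial markers were higher in control NPC than in control ESC for 5 of 7 genes and lower for 2, and fibroblast markers were higher for 6 of 7 and lower for 1. In knockdown cells, 1 endothelial marker was higher in NPC and 2 were lower, and 1 fibroblast marker was higher and 1 lower. Those are 42.9% and 28.6% of these lists. Of all genes, 48.8% were called between the states in knockdown cells and 48.6% in control cells. The endothelial list mean was 7.04 to 8.03 in control NPC and 6.08 to 6.53 in knockdown NPC. The difference of the knockdown effects between the states was below 0 and passed the test for 4 of 7 endothelial and 0 of 7 fibroblast markers by limma. At an unadjusted p under 0.05 there were 4 fibroblast markers. Of all genes, 1.42% passed the test and 15.3% had an unadjusted p under 0.05. In knockdown NPC, 4 of 9 ESC markers were higher and 3 of 7 endothelial and 1 of 7 fibroblast markers lower than in control NPC, and 5 of 5 germ cell genes were higher. Of all genes, 1.03% were called between these groups. No value on such an array is a true zero, and the part of these markers in the results was not tested.

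**Figure D1:**
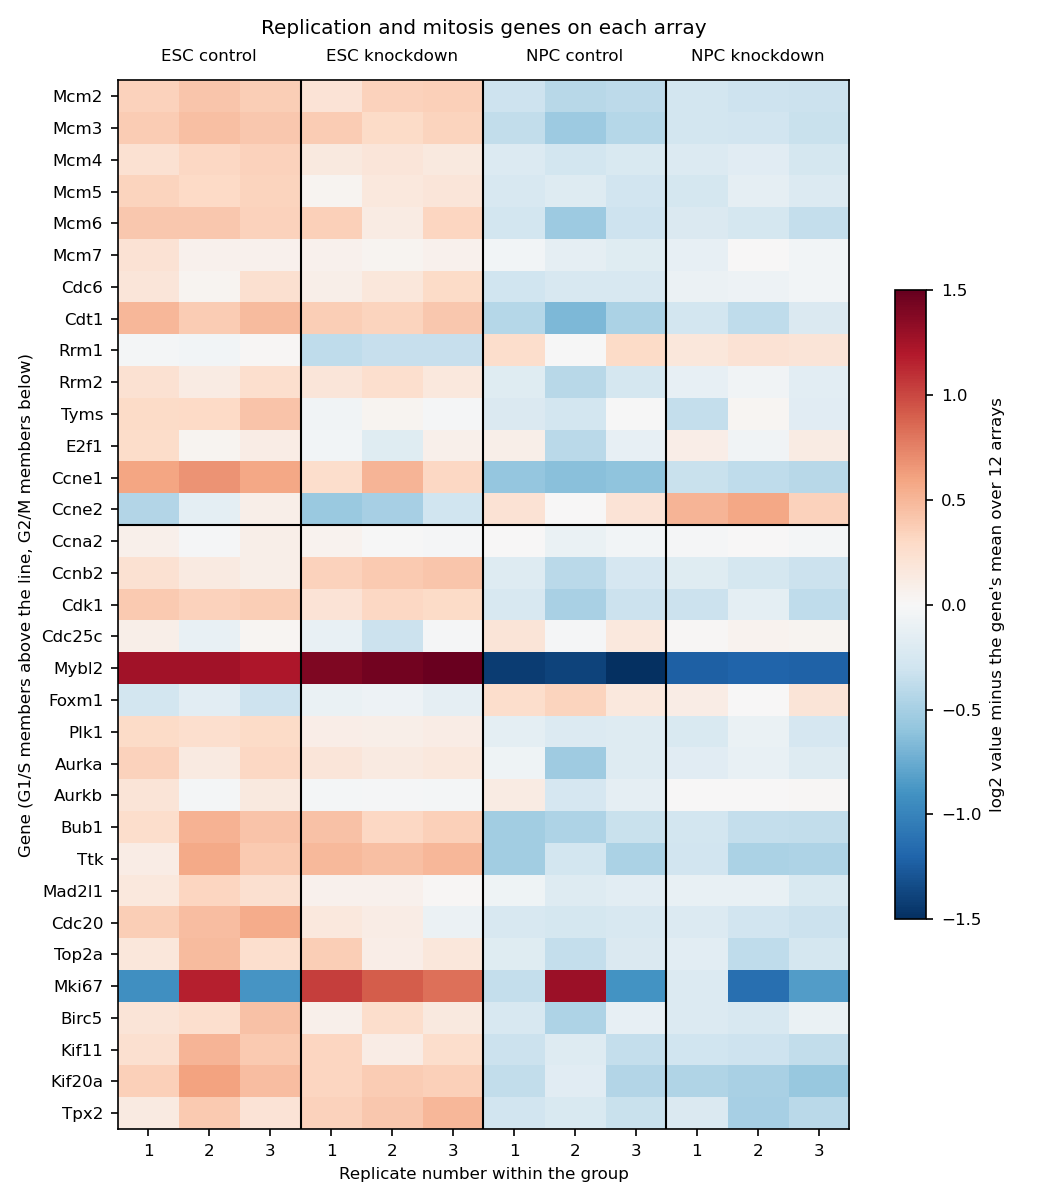
Each row is 1 of the 33 measured genes and each column 1 of the 12 arrays, grouped by cell state and shRNA. Colour gives the log2 value minus the gene's mean over the 12 arrays, red for higher and blue for lower, and the horizontal line separates G1/S from G2/M genes. Most rows are red in ESC and blue in NPC, with the widest contrast for Mybl2, while Mki67 follows single arrays.

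Mki67, which encodes the proliferation antigen Ki-67 that coats mitotic chromosomes, stood apart before any comparison was made. Its values were 9.44, 11.53 and 9.48 in control ESC and 11.40, 11.27 and 11.18 in knockdown ESC. They were 9.998, 11.65 and 9.46 in control NPC and 10.15, 9.23 and 9.52 in knockdown NPC. Replicate 2 of both control groups and all 3 knockdown ESC arrays were thus high, and the other 7 arrays lay between 9.23 and 10.15. The SD within groups was 0.86, and 3 of 18784 genes had a larger one. The median SD was 0.14 over all genes and 0.087 over the members, of which 30 of 33 lay below the median of all genes.

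Other genes deviated with Mki67 within the groups. The 5 genes outside the lists whose deviations from the group means were most like those of Mki67 were Golgb1, Smc3, Bod1l, Ankrd11 and Zc3h13, each with a correlation of 0.98 over the 12 arrays. Golgb1, a Golgi protein gene, measured 6.996, 8.40 and 7.17 in control ESC, 8.12, 8.09 and 8.19 in knockdown ESC, 7.03, 8.34 and 6.81 in control NPC, and 7.33, 6.88 and 6.89 in knockdown NPC. Among mitotic genes outside the 35, the kinetochore motor gene Cenpe measured 8.74, 10.46 and 9.12 in control ESC and 9.94, 9.80 and 9.87 in knockdown ESC. The 3 knockdown ESC arrays lay above the other 7 for Golgb1, Smc3, Bod1l and Ankrd11 and overlapped with them for Zc3h13. Relative to each gene's mean over the 12 arrays, a scale that keeps differences between groups, the mean of the 50 most similar genes was 0.52 and 0.44 in replicate 2 of control ESC and control NPC and 0.32 to 0.36 in knockdown ESC. It was -0.46 to -0.12 in the other 7 arrays. Kif20a, Ttk, Foxm1, Kif11 and Tpx2 deviated in the same direction as Mki67, with correlations of 0.73 to 0.90, and Aurka, Rrm2, Rrm1 and Ccna2 in the opposite direction, with correlations of -0.82 to -0.73. These are descriptions over the 12 arrays, since the genes were chosen by their likeness. Some results below are also given without replicate 2 of both control groups, or with the mean of these 50 genes as a covariate. The covariate was chosen from the same arrays and takes up spread of members that deviate with or against Mki67. A call gained with it is therefore no separate support. The 3 knockdown ESC arrays form a whole group and were not left out together.

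**Figure D2:**
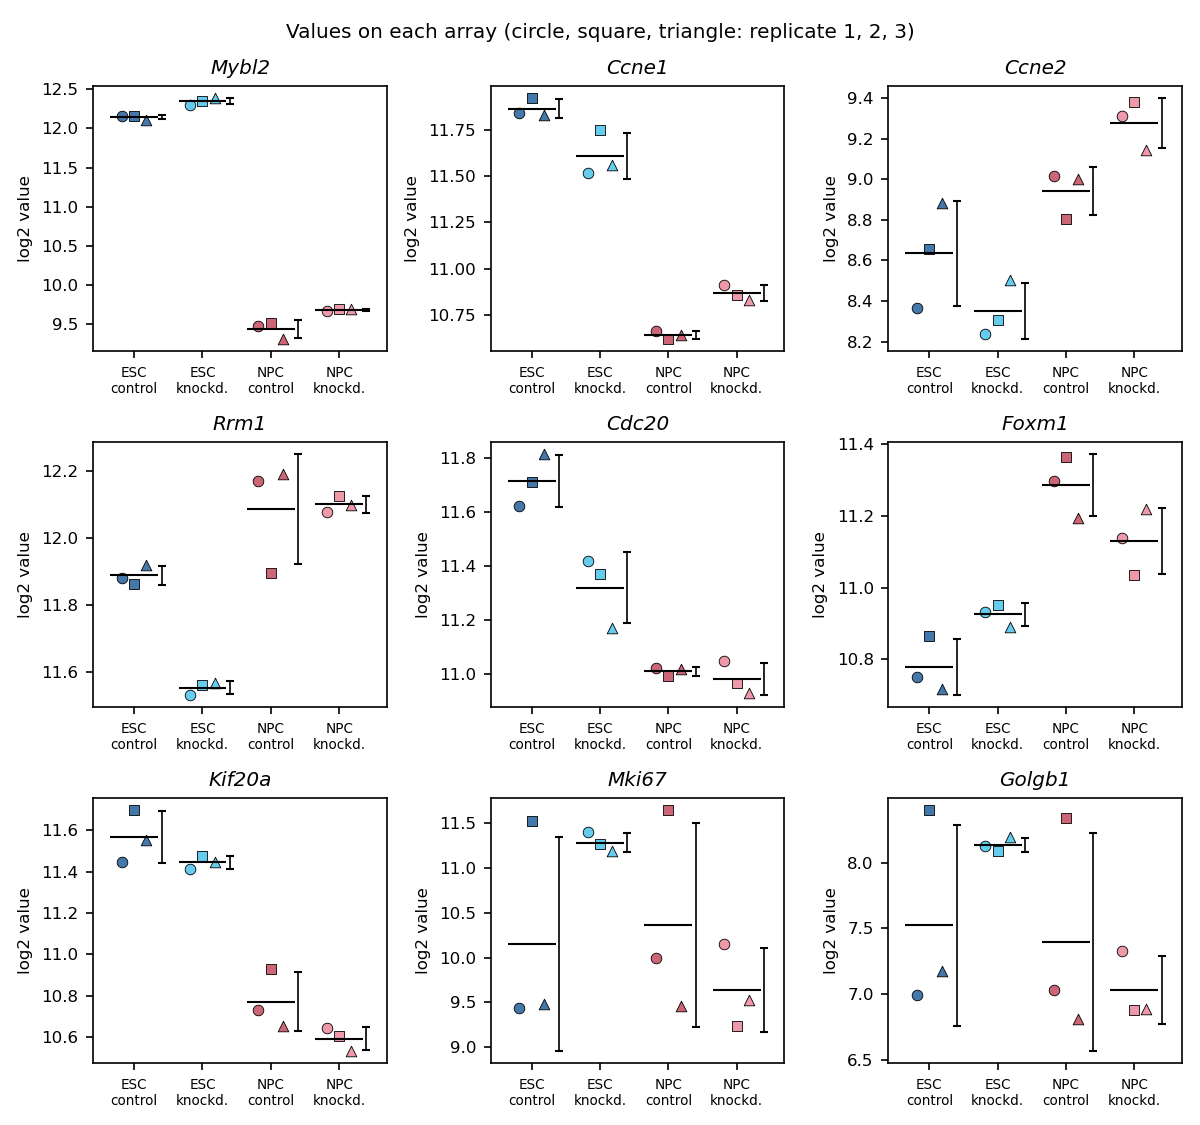
Each panel shows 1 gene, with the log2 value of each array on the vertical axis and the 4 groups on the horizontal axis. Symbols are arrays, horizontal lines are group means and bars are 1 SD (n = 3). The vertical axes differ between panels and do not start at 0. Mybl2 separates the cell states, while Mki67 and Golgb1 are high in replicate 2 of both control groups and in all 3 knockdown ESC arrays.

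The first comparison asked how the genes of replication and mitosis differ between ESC and the neural progenitors made from them. In control cells, 25 of 33 members were lower in NPC and 1 was higher, at a limma adjusted p under 0.05. That is 78.8% of members called, where 48.6% of all genes were called (25.1% lower and 23.5% higher). The median change was -0.52 for the G1/S and -0.53 for the G2/M members, and -0.042 for all genes. G1/S and G2/M members therefore differed between the cell states by much the same amount, 11 of 14 and 14 of 19 being lower. In bulk RNA, fewer cycling cells and less of these RNAs per cell cannot be told apart.

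Among the G2/M genes, a regulator of the mitotic programme, itself a target of E2F, differed most. Mybl2 measured 12.16, 12.16 and 12.11 in control ESC and 9.49, 9.52 and 9.31 in control NPC. The groups were far apart, and knockdown cells gave 12.30, 12.35 and 12.38 in ESC and 9.68, 9.70 and 9.69 in NPC. The change was -2.71 ± 0.079 (SE, limma adjusted p = 2.55e-11) in control cells, or 6.53-fold lower, which ranked 172 of 18784 genes from the lowest change. In knockdown cells it was -2.66 ± 0.079 (SE, limma adjusted p = 3.31e-11), or 6.31-fold lower.

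Foxm1, the partner factor of the same programme, went the other way. It measured 10.75, 10.87 and 10.72 in control ESC and 11.30, 11.37 and 11.19 in control NPC. Every NPC value was above every ESC value, and the change was 0.51 ± 0.084 (SE, limma adjusted p = 0.000185). In knockdown cells its values were 10.93, 10.95 and 10.89 in ESC and 11.14, 11.03 and 11.22 in NPC, a change of 0.20 ± 0.084 (SE, limma adjusted p = 0.06). That difference passed under some alternatives, with a limma adjusted p of 0.0172 with array weights. With the mean of the 50 genes like Mki67 as a covariate, the change was 0.32 (limma adjusted p = 0.0199). Foxm1 is among the genes that deviated with Mki67, so the limit given above holds for that call.

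Mitotic kinases and the spindle checkpoint were lower in control NPC for 6 of their 7 members. Bub1, a kinase of the spindle checkpoint, measured 11.91, 12.17 and 12.07 in control ESC and 11.13, 11.19 and 11.31 in control NPC, a change of -0.84 ± 0.089 (SE). Ttk (Mps1), the kinase that starts checkpoint signalling, measured 9.81, 10.26 and 10.09 against 9.18, 9.42 and 9.22, a change of -0.78 ± 0.11 (SE). Neither pair of groups overlapped. Cdc20 changed by -0.71 ± 0.088, Aurka by -0.53 ± 0.11, Plk1 by -0.46 ± 0.074 and the checkpoint gene Mad2l1 by -0.38 ± 0.080 (SE). Aurkb, the Aurora kinase of the chromosome passenger complex, changed by -0.19 ± 0.099 (SE, limma adjusted p = 0.138) and was not called. The limma adjusted p of those called lay between 3.24e-06 for Bub1 and 0.00135 for Mad2l1.

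All 3 spindle genes were lower as well. Kif20a, a kinesin of the central spindle, measured 11.45, 11.70 and 11.55 in control ESC and 10.73, 10.93 and 10.65 in control NPC, a change of -0.80 ± 0.094 (SE, limma adjusted p = 8.72e-06). The groups did not overlap, and replicate 2 was the highest array in both. Kif11 changed by -0.67 ± 0.093 and Tpx2, which activates Aurora A on the spindle, by -0.52 ± 0.097 (SE). Among the chromosome proteins, Top2a (topoisomerase II alpha) changed by -0.55 ± 0.11 and Birc5 (survivin) by -0.57 ± 0.11 (SE). Mki67 changed by 0.22 ± 0.56 (SE, limma adjusted p = 0.786) and was not called.

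The cyclins and their kinase were less uniform. Cdk1 changed by -0.72 ± 0.091 (SE, limma adjusted p = 1.61e-05) and Ccnb2 (cyclin B2) by -0.43 ± 0.084 (SE, limma adjusted p = 0.000703). Ccna2 (cyclin A2) measured 12.73, 12.64 and 12.75 in control ESC, 12.70, 12.64 and 12.63 in knockdown ESC, 12.66, 12.56 and 12.62 in control NPC, and 12.64, 12.66 and 12.62 in knockdown NPC. All 12 arrays lay within a narrow band, and the change in control cells was -0.096 ± 0.074 (SE, limma adjusted p = 0.322). Cdc25c, the phosphatase that activates Cdk1, measured 8.71, 8.52 and 8.65 in control ESC, 8.52, 8.31 and 8.61 in knockdown ESC, 8.82, 8.61 and 8.79 in control NPC, and 8.64, 8.67 and 8.67 in knockdown NPC. Its change in control cells was 0.11 ± 0.098 (SE, limma adjusted p = 0.399). Of the 4 members called in no comparison, which also include E2f1 and Aurkb, Ccna2 and Cdc25c had the smallest changes in control cells.

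Of the G1/S genes, Ccne1 (cyclin E1) differed most. It measured 11.84, 11.92 and 11.83 in control ESC and 10.66, 10.62 and 10.64 in control NPC, a change of -1.22 ± 0.082 (SE, limma adjusted p = 4.6e-08), or 2.33-fold lower. The other cyclin E gene did not follow it. Ccne2 measured 8.37, 8.66 and 8.88 in control ESC and 9.01, 8.81 and 9.003 in control NPC, a change of 0.31 ± 0.13 (SE, limma adjusted p = 0.067). Its groups overlapped in control cells. Leaving out control ESC replicate 3 gave 0.43 (limma adjusted p = 0.0147) and leaving out control NPC replicate 2 gave 0.37 (limma adjusted p = 0.0469).

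The helicase and its loaders were lower in control NPC for 8 of 8 genes. Cdt1 measured 12.22, 12.12 and 12.20 in control ESC and 11.30, 11.06 and 11.26 in control NPC, a change of -0.98 ± 0.087 (SE, limma adjusted p = 6.17e-07). Mcm3 measured 11.79, 11.87 and 11.82 against 11.04, 10.87 and 10.99, a change of -0.86 ± 0.077 (SE). Mcm6 measured 11.52, 11.52 and 11.47 against 10.84, 10.58 and 10.81, a change of -0.76 ± 0.095 (SE). None of these 3 genes had overlapping groups. The other changes were -0.75 ± 0.077 for Mcm2, -0.56 ± 0.077 for Mcm5, -0.53 ± 0.074 for Mcm4, -0.41 ± 0.084 for Cdc6 and -0.24 ± 0.080 for Mcm7 (SE). Mcm7 was the weakest of the 6 subunits (limma adjusted p = 0.0263). It was no longer called with quantile normalization (-0.15, limma adjusted p = 0.115), with array weights (0.0727) or with the 6 control arrays alone (0.0975). The call was also lost with a replicate block on those 6 arrays (0.0688) and without replicate 2 of both control groups (0.0546). Leaving out control ESC replicate 1 (0.0919), control NPC replicate 2 (0.0519) or control NPC replicate 3 (0.0861) lost it too.

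The genes for nucleotide supply split. Rrm2, the regulated subunit of ribonucleotide reductase, changed by -0.48 ± 0.084 and Tyms (thymidylate synthase) by -0.50 ± 0.11 (SE, limma adjusted p = 0.000285 and 0.00145). Rrm1, the large subunit of the same reductase, measured 11.88, 11.86 and 11.92 in control ESC and 12.17, 11.90 and 12.19 in control NPC, a change of 0.20 ± 0.087 (SE, limma adjusted p = 0.0796). The groups overlapped through control NPC replicate 2, and without that array the change was 0.29 (limma adjusted p = 0.00579). Without replicate 2 of both control groups it was 0.28 (limma adjusted p = 0.0146), and with quantile normalization 0.26 (0.00726). It was also called with the intensity trend (0.0340) and array weights (0.0248). E2f1 changed by -0.29 ± 0.12 (SE, limma adjusted p = 0.0689) and was called with the replicate number as a block, with a limma adjusted p of 0.0245 on all 12 arrays and 0.0458 on the 6 control arrays. Without control NPC replicate 1, E2f1 changed by -0.40 (limma adjusted p = 0.0151) and Aurkb by -0.30 (limma adjusted p = 0.0211). With the mean of the 50 genes like Mki67 as a covariate, both were called (limma adjusted p = 0.0255 and 0.0420). Both deviated against Mki67, with correlations of -0.54 for E2f1 and -0.68 for Aurkb, so the limit given above holds for these calls.

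**Figure D3:**
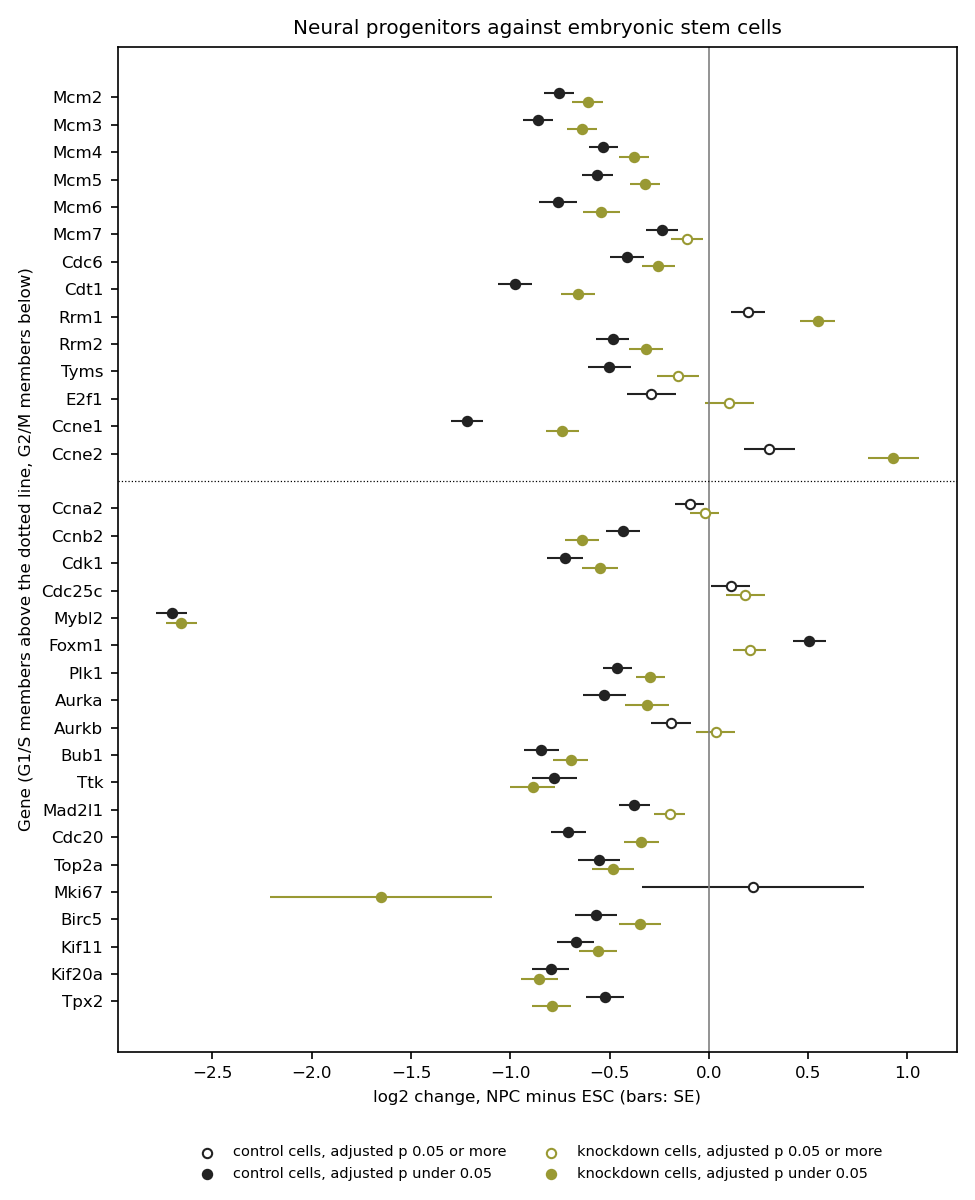
The horizontal axis gives the log2 change from ESC to NPC for each of the 33 genes, in control cells (black) and in knockdown cells (olive). Bars are standard errors and filled symbols have an adjusted p under 0.05. Most genes lie left of 0 in both, and all G1/S genes lie further left in control than in knockdown cells.

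The same comparison in knockdown cells used the other 6 arrays. There, 23 of 33 members were lower in NPC and 2 higher, 75.8% called, where 48.8% of all genes were called (25.0% lower and 23.8% higher). Of the members lower in control cells, 22 were also lower in knockdown cells, which is 88.0% of the 25 in control and 95.7% of the 23 in knockdown cells. Over all genes the shares were 76.7% and 77.1%. The median change was -0.32 for the G1/S members, -0.48 for the G2/M members and -0.068 for all genes. The G2/M median minus the G1/S median was -0.16, against -0.0090 in control cells, where it ranged from -0.041 to 0.052 with 1 array left out. The gap in knockdown cells was -0.061 without knockdown ESC replicate 1, -0.075 without knockdown NPC replicate 2 and -0.093 with Mybl2 counted among the G1/S members.

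The 2 rises were those of Ccne2 and Rrm1. Ccne2 measured 8.24, 8.30 and 8.50 in knockdown ESC and 9.31, 9.38 and 9.14 in knockdown NPC, a change of 0.93 ± 0.13 (SE, limma adjusted p = 4.13e-05). Rrm1 measured 11.53, 11.56 and 11.57 against 12.08, 12.13 and 12.10, a change of 0.55 ± 0.087 (SE, limma adjusted p = 0.000142). For both genes every NPC value was above every ESC value.

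The largest falls among G1/S genes were again those of Ccne1, Cdt1 and the MCM genes. Ccne1 measured 11.51, 11.75 and 11.56 in knockdown ESC and 10.91, 10.86 and 10.84 in knockdown NPC, a change of -0.74 ± 0.082 (SE). Cdt1 measured 12.10, 12.06 and 12.13 against 11.46, 11.36 and 11.51, a change of -0.66 ± 0.087 (SE). Mcm3 measured 11.80, 11.71 and 11.75 against 11.14, 11.12 and 11.08, a change of -0.64 ± 0.077 (SE). These 3 genes fell in both shRNA groups without overlap. Mcm2 measured 12.14, 12.28 and 12.29 in knockdown ESC and 11.66, 11.61 and 11.60 in knockdown NPC, a change of -0.61 ± 0.077 (SE). Mcm7, at -0.11 ± 0.080 (SE, limma adjusted p = 0.276), and Tyms, at -0.16 ± 0.11 (SE, limma adjusted p = 0.254), were not called in knockdown cells.

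Among the G2/M genes, Ttk measured 10.18, 10.15 and 10.20 in knockdown ESC and 9.41, 9.22 and 9.23 in knockdown NPC, a change of -0.89 ± 0.11 (SE, limma adjusted p = 2.08e-05). Kif20a measured 11.41, 11.48 and 11.45 against 10.64, 10.60 and 10.53, a change of -0.85 ± 0.094 (SE, limma adjusted p = 5.03e-06). Both separated the groups fully. Mki67 changed by -1.65 ± 0.56 (SE, limma adjusted p = 0.026), and its 3 knockdown ESC arrays are among the high ones described above. The Mki67 call was lost without any 1 of the 3 knockdown ESC arrays (limma adjusted p = 0.0522 to 0.0666), without knockdown NPC replicate 2 (0.0854) or without knockdown NPC replicate 3 (0.0660).

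Of the weaker calls in knockdown cells, Cdc6 (-0.25 ± 0.084, SE) was lost without knockdown ESC replicate 2 or 3 (limma adjusted p = 0.0512 and 0.0985) and without knockdown NPC replicate 1 or 2 (0.0621 and 0.0579). Aurka (-0.31 ± 0.11, SE) was lost without any 1 of the 6 knockdown arrays (limma adjusted p = 0.0501 to 0.0880). Birc5 (-0.35 ± 0.11, SE) was lost without knockdown ESC replicate 2 (limma adjusted p = 0.0611). The other 21 of the 25 calls in knockdown cells held under every alternative that was run, as did 25 of the 26 calls in control cells, where Mcm7 was the exception. Mad2l1 (-0.20 ± 0.080, SE, limma adjusted p = 0.0553) was not called. It was called under 9 alternatives, with a limma adjusted p between 0.0143 with array weights and 0.0480 without control NPC replicate 2.

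The next comparison set knockdown of Jarid1b against control in ESC. Of 33 members, 2 were lower and 0 higher at a limma adjusted p under 0.05, which is 6.06% of members where 5.21% of all genes were called (3.37% lower and 1.84% higher). The share of members called is thus near that of all genes. The 3 arrays of each group did not overlap for 9 members that were lower (13.6% of all genes) and 3 that were higher (10.6% of all genes) in knockdown ESC. Without regard to the test, 13 of 14 G1/S changes and 13 of 19 G2/M changes lay below 0, where 46.4% of all genes did. The members share these arrays, so such counts are not made of separate results. The median change was -0.13 for G1/S, -0.11 for G2/M and 0.017 for all genes, and the G2/M median was -0.065 without knockdown ESC replicate 2. Markers differed between the same groups. Of 11 neuronal markers, 4 were lower in knockdown ESC (36.4%), with list means of 8.06 to 8.32 against 8.36 to 8.48 in control ESC. Of 9 neural progenitor markers, 2 were lower and 1 was higher, and of 7 endothelial markers 1 was higher. The part of these markers was not tested.

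Cdc20 measured 11.62, 11.71 and 11.82 in control ESC and 11.42, 11.37 and 11.17 in knockdown ESC. The groups did not overlap, and the change was -0.40 ± 0.088 (SE, limma adjusted p = 0.0228). Rrm1 measured 11.88, 11.86 and 11.92 against 11.53, 11.56 and 11.57, a change of -0.34 ± 0.087 (SE, limma adjusted p = 0.0446). Its groups were well apart too. In NPC, Cdc20 changed by -0.030 ± 0.088 and Rrm1 by 0.014 ± 0.087 (SE), both with overlapping groups.

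Neither call was firm. The Cdc20 call was lost without control ESC replicate 2 (limma adjusted p = 0.0566) or 3 (0.126), without knockdown ESC replicate 2 (0.0524) or 3 (0.107), and when the 6 ESC arrays were fitted alone (0.0758). The Rrm1 call was lost without any 1 of the 6 ESC arrays (limma adjusted p = 0.0560 to 0.179), and without control NPC replicate 1 (0.0517) or any 1 of the knockdown NPC arrays (0.0607 to 0.0697). It was also lost with the replicate number as a block (0.0580), with the 6 ESC arrays alone (0.0662) and with the covariate of genes like Mki67 (-0.27, 0.0695). With array weights, 7 members were called, which added Tyms (-0.38), Ccne1 (-0.25) and Ccne2 (-0.39) on the lower side and Ccnb2 (0.27) and Mybl2 (0.22) on the higher side.

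The 4 lowest G1/S changes in ESC were those of Tyms, Rrm1, Ccne2 and Ccne1, genes of nucleotide supply and S-phase entry. Ccne1 changed by -0.25 ± 0.082 (SE, limma adjusted p = 0.097), Ccne2 by -0.29 ± 0.13 (0.243), Tyms by -0.34 ± 0.11 (0.0867) and E2f1 by -0.19 ± 0.12 (0.440). The MCM genes lay between -0.20 for Mcm5 and -0.056 for Mcm7, with 0 of 6 called. Cdc6 changed by 0.030 ± 0.084, Cdt1 by -0.083 ± 0.087 and Rrm2 by 0.00 ± 0.084 (SE). Of the genes in this paragraph, Rrm1 alone passed the test, as given above.

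The G2/M members spread to both sides in ESC. Ccnb2 measured 12.43, 12.34 and 12.30 in control ESC and 12.55, 12.60 and 12.62 in knockdown ESC, a change of 0.24 ± 0.084 (SE, limma adjusted p = 0.135). Mybl2 changed by 0.20 ± 0.079 (0.174) and Foxm1 by 0.15 ± 0.084 (0.375). For these 3 genes every knockdown value was above every control value. Plk1 changed by -0.18 ± 0.074 (0.204) and Mad2l1 by -0.19 ± 0.080 (0.205), with groups that did not overlap. Mki67 changed by 1.14 ± 0.56 (SE, limma adjusted p = 0.295) and by 1.83 ± 0.24 (SE, limma adjusted p = 0.00538) when replicate 2 of both control groups was left out. In the latter fit the members called were Rrm1, Mki67 and Cdc20. With the covariate, Cdc20 alone was called. The part of the high arrays in this change was not tested further.

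**Figure D4:**
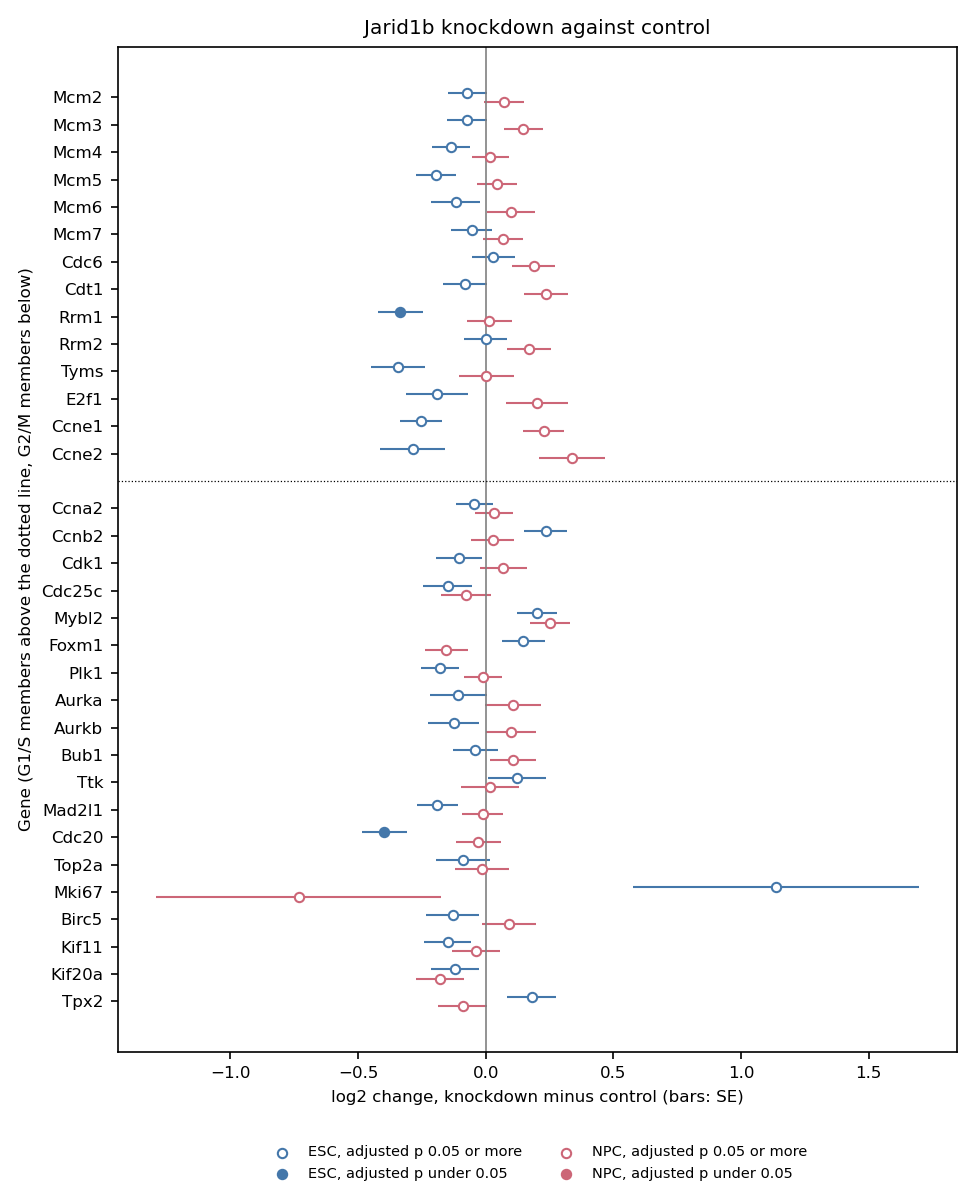
The horizontal axis gives the log2 change from control to knockdown for each of the 33 genes, in ESC (blue) and in NPC (red). Bars are standard errors and filled symbols, Rrm1 and Cdc20 in ESC, have an adjusted p under 0.05. All G1/S genes lie further right in NPC than in ESC, and G2/M genes do so in 13 of 19 cases.

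In NPC, knockdown gave 0 calls among 33 members by limma, where 1.03% of all genes were called. At an unadjusted p under 0.05 there were 5 members, where 9.52% of all genes passed. These 5 were Ccne1 (0.23 ± 0.082), Ccne2 (0.34 ± 0.13), Cdt1 (0.24 ± 0.087), Cdc6 (0.19 ± 0.084) and Mybl2 (0.25 ± 0.079, SE), all above 0. Their limma adjusted p lay between 0.212 for Mybl2 and 0.489 for Cdc6. For the 32 members other than Mki67, the 95% confidence intervals lay between -0.38 and 0.62, so changes beyond those bounds lay outside every interval. Mki67 changed by -0.73 ± 0.56 (SE, limma adjusted p = 0.827).

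Changes of the G1/S members in NPC lay above 0 for 14 of 14 genes, where 51.1% of all genes did, with a median of 0.12. These genes tended to vary together between arrays, so they do not count as 14 separate results. Within groups, the median correlation between pairs of G1/S members was 0.22, with 74.7% above 0. Between members and all other genes it was 0.01, with 50.5% above 0. Groups did not overlap for 6 of the 14, all higher in knockdown NPC, where 8.30% of all genes were. Those were Ccne1, Ccne2, Cdc6, Cdt1, Mcm3 and Rrm2. Ccne1 measured 10.66, 10.62 and 10.64 in control NPC and 10.91, 10.86 and 10.84 in knockdown NPC. Cdc6 measured 8.58, 8.63 and 8.63 against 8.78, 8.79 and 8.83. Both genes kept the groups apart by more than the range within either group. The median fell to 0.071 without control NPC replicate 2, the array that was high for Mki67 and low for Cdt1, Mcm3 and Rrm2. Among G2/M members, 9 of 19 changes lay above 0, the median was -0.010, and the groups did not overlap for Mybl2 (higher) and Kif20a (lower, -0.18 ± 0.094, SE), where 8.30% and 5.91% of all genes did not. The sign of that median turned without control NPC replicate 1 (0.020), without knockdown NPC replicate 3 (0.023) and with the covariate (0.0050). Germ cell, ESC, endothelial and fibroblast markers moved between the same groups, as given above.

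Whether the knockdown acted differently in the 2 cell states was tested directly, as the difference of its effects (NPC minus ESC). The same test asks whether the change from ESC to NPC differed between control and knockdown cells, so it shares its arrays with all comparisons above. Kdm5b itself fell less in NPC, from a mean of 11.23 to 10.47, than in ESC, from 12.41 to 10.68. Its difference passed the test, but was lost under some alternatives, such as without replicate 2 of both control groups (0.89, limma adjusted p = 0.0698). The part of this unequal depth of knockdown in the differences of the members was not tested. By limma, 0 of 33 members passed, where 1.42% of all genes did. At an unadjusted p under 0.05 there were 10 members, where 15.3% of all genes passed. The G1/S differences were above 0 for 14 of 14 genes, from 0.12 for Mcm7 to 0.62 for Ccne2, with a median of 0.23. As these genes tended to vary together, they are not 14 separate results here either. The G2/M differences were above 0 for 13 of 19 genes, with a median of 0.076, and 48.8% of all genes were above 0. The G2/M median was 0.14 without control ESC replicate 1 and, likewise, without knockdown ESC replicate 1.

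Ccne1 came closest, with a difference of 0.48 ± 0.12 (SE, limma adjusted p = 0.0635). Every knockdown ESC array lay below every control ESC array, and every knockdown NPC array above every control NPC array. It was called with the filter on low values (limma adjusted p = 0.0462), with an intensity trend and robust prior (0.0313) and with array weights (0.0331). Ccne2 differed by 0.62 ± 0.18 (SE, limma adjusted p = 0.117) and was called with array weights (0.0380) and without control ESC replicate 1 (0.76, 0.0304). Next by p-value came Cdc20 (0.37 ± 0.13), Rrm1 (0.35 ± 0.12), Cdt1 (0.32 ± 0.12) and Foxm1 (-0.30 ± 0.12, SE), none of which was called.

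The balance of the 2 classes on each array was described without a test. The mean of the G2/M members minus that of the G1/S members, with Mki67 left out, was 0.063, 0.15 and 0.081 in control ESC and 0.24, 0.19 and 0.16 in knockdown ESC. It was 0.011, 0.086 and -0.0060 in control NPC and -0.052, -0.12 and -0.096 in knockdown NPC. The knockdown arrays lay above the control arrays in ESC and below them in NPC, without overlap in either state. Mki67 was left out after its values were seen. With Mki67 included, control ESC replicate 2 (0.154) lay above knockdown ESC replicate 3 (0.153), so the ESC groups overlapped, and the NPC groups still did not. Replicate 2 was the highest control array in both states. It and all knockdown ESC arrays were the high arrays for Mki67. All G1/S members but Mcm2 (0.04) and Ccne1 (0.21) had correlations below 0 with the deviations of Mki67, down to -0.77 for Rrm2. Those of the other G2/M members ran from -0.82 for Aurka to 0.90 for Kif20a. Members other than Mki67 thus deviated with or against it, and the part of that pattern in the balance without Mki67 was not tested. The G1/S mean itself was 11.34 to 11.39 in control ESC, 11.18 to 11.24 in knockdown ESC, 10.76 to 10.92 in control NPC and 10.97 to 11.01 in knockdown NPC. The G2/M mean with Mki67 included was 11.31 to 11.49, 11.39 to 11.42, 10.80 to 10.89 and 10.80 to 10.89 in the same order, and the groups of each state overlapped.

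Other genes of the same pathways came from lists of 48 replication genes, 57 mitotic genes and 13 genes of the E2F and MuvB factors. The replication and mitotic genes called between the cell states were mostly lower in NPC, as the members were, and the E2F and MuvB genes called lay on both sides. Of the 47 replication genes measured, 35 were lower and 2 higher in control NPC (78.7% called), with a median of -0.53. In knockdown NPC, 32 were lower and 3 higher (74.5% called). Of all genes, 48.6% and 48.8% were called, with a median of -0.042 in control cells. Orc1, a subunit of the origin recognition complex, measured 10.92, 11.05 and 11.00 in control ESC and 8.05, 8.45 and 8.35 in control NPC, a change of -2.71 ± 0.13 (SE). In knockdown cells it changed by -2.32 ± 0.13 (SE). Ung, the uracil glycosylase, changed by -1.66 ± 0.089 and -1.45 ± 0.089, and the initiation factor Mcm10 by -1.42 ± 0.10 and -1.42 ± 0.10 (SE). The genes that were higher in control NPC were Slbp (0.26 ± 0.095), the histone mRNA binding protein, and the clamp loader subunit Rfc3 (0.26 ± 0.10, SE). In knockdown NPC they were Slbp (0.65 ± 0.095), Rfc3 (0.53 ± 0.10) and Rfc4 (0.30 ± 0.11, SE).

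Of the 53 mitotic genes measured, 31 were lower and 2 higher in control NPC (62.3% called, where 48.6% of all genes were), with a median of -0.52. In knockdown NPC, 35 were lower and 5 higher (75.5% called, where 48.8% of all genes were). Cyclin F (Ccnf) changed by -1.47 ± 0.086, the separase gene Espl1 by -1.36 ± 0.088 and the abscission gene Cep55 by -1.28 ± 0.096 (SE) in control cells. The falls with the smallest p in knockdown cells were those of Hmmr (-1.75 ± 0.11), Cep55 (-1.43 ± 0.096) and Espl1 (-1.30 ± 0.088, SE). Cdc25b, a phosphatase that activates Cdk1 and the relative of Cdc25c, was higher in NPC. It measured 9.56, 9.46 and 9.44 in control ESC and 11.30, 10.65 and 11.06 in control NPC, a change of 1.52 ± 0.14 (SE, limma adjusted p = 8.55e-07), and changed by 1.59 ± 0.14 (SE) in knockdown cells. Pbk rose by 0.43 ± 0.15 and 0.70 ± 0.15 (SE), and Bub3 by 0.59 ± 0.096 (SE) in knockdown cells.

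Of the 13 E2F and MuvB genes, 4 were higher and 2 lower in control NPC, with a median of 0.059, and 5 were higher and 2 lower in knockdown NPC, with a median of 0.245. The shares called, 46.2% and 53.8%, were near those of all genes (48.6% and 48.8%). E2f6, a repressor, changed by 0.85 ± 0.12 and 0.94 ± 0.12, and E2f5 by 0.78 ± 0.11 and 0.79 ± 0.11 (SE). Lin9 rose by 0.33 ± 0.12 in control and 0.45 ± 0.12 in knockdown cells. E2f7, another repressor, rose by 0.27 ± 0.099 and 0.46 ± 0.099 (SE). E2f3 was called in knockdown cells only (0.58 ± 0.13, SE). Lin37, a MuvB subunit, changed by -0.39 ± 0.11 and -0.60 ± 0.11, and E2f4 by -0.29 ± 0.10 and -0.35 ± 0.10 (SE).

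With knockdown in ESC, 2.13% of the replication genes, 5.66% of the mitotic genes and 0 of 13 E2F and MuvB genes were called, where 5.21% of all genes were. In NPC, 1.89% of the mitotic genes and none of the other lists were called by limma, where 1.03% of all genes were. In ESC, 1 of 47 replication genes was called, Gins3, a helicase cofactor (0.44 ± 0.092, SE, limma adjusted p = 0.0181). Of 53 mitotic genes, Pkmyt1, an inhibitory kinase of Cdk1, rose by 0.49 ± 0.092, while the checkpoint gene Bub3 changed by -0.44 ± 0.096 and the lamin gene Lmnb1 by -0.28 ± 0.075 (SE). Pkmyt1 measured 9.48, 9.47 and 9.31 in control ESC and 10.01, 9.92 and 9.80 in knockdown ESC, without overlap. In NPC, 1 mitotic gene was called, Psrc1, a spindle protein gene, which measured 11.02, 10.95 and 11.18 in control and 11.52, 11.41 and 11.46 in knockdown NPC. Its change was 0.42 ± 0.086 (SE, limma adjusted p = 0.0384). Of the 47 replication genes, 0 were called in NPC by limma, and 2 had an unadjusted p under 0.05. Of the E2F and MuvB genes, 0 of 13 were called in either state by limma, with a lowest adjusted p of 0.0705 in ESC and 0.841 in NPC. At an unadjusted p under 0.05 there were 3 in ESC and 0 in NPC.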

How the data were processed

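RNA of 12 samples was hybridised to Affymetrix mouse gene arrays. The authors deposited log2 values made with affy, RMA and limma, per the submitters' processing notes, with 1 value for each probe set on each array. Versions and genome build: not given in the sources used here. The RMA method subtracts background, equalizes the distributions of the arrays and compresses differences near the floor and ceiling. Array medians lay between 7.70 and 7.79, and the lowest value of any member, 8.24, was above the highest lower quartile of an array, 6.11. Precision is limited by the number of arrays.

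Of the 21212 probe sets, 18786 had 1 gene symbol, 6 had several and 2420 were not listed. The probe set with the highest mean stood for a gene, which gave 18784 genes, 18773 of them matched by Entrez ID to RefSeq (GRCm38.p6). A group-means model of all 12 arrays was fitted with limma 3.58.1 in R 4.3.3 (8 residual and 4.81 prior degrees of freedom). Two-sided p-values were adjusted over 18784 genes (Benjamini-Hochberg), with a threshold of 0.05. Changes are log2 differences with limma's standard error. The steps were tested on simulated data with independent noise for each gene and array. That setting lacks the pattern shared by Mki67 and genes like it, so it says nothing of calls under such a pattern.

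The members and lists were chosen with earlier results of these data known. Values on each array are given for members called in a knockdown comparison, for the 4 largest rises and falls per class in the comparisons of cell states, and for the 2 smallest changes in control cells among members called nowhere; a few others were added after their values were seen. Of the other lists, up to 3 genes with the smallest p per direction are named, and all E2F and MuvB genes that were called.

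Replicate numbers come from the sample titles. Over genes, the deviations of control ESC and control NPC arrays of the same number had correlations of 0.266, 0.286 and 0.334. On this basis, which comes from the data and not from the design, those numbers count as pairs. Replicate 2 of both control groups also shared the pattern of Mki67, and the part of that pattern in these correlations was not tested. The values reported come from the model without a block, and the replicate block was an alternative. The other comparisons had at least 1 pair below 0.1. The alternatives tried were the replicate number as a block, a minimum on the mean level (6.74, which kept 12340 genes), an intensity trend with robust prior, quantile normalization, array weights, median centring, averaging the probe sets of a gene, the arrays of a comparison alone, Mybl2 counted with G1/S, and leaving out each array. Added after seeing the data were a replicate block on the 6 control arrays, leaving out replicate 2 of both control groups, and a covariate, the mean of 50 genes like Mki67, which was not applied to Mki67 itself.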

Additional observations from a re-analysis of the deposited data

How the results depend on the processing

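Members called in knockdown ESC numbered 2, and 1 with the replicate block, 0 with the 6 ESC arrays alone, 7 with array weights, 1 with the covariate and 0 to 2 with 1 array left out. In knockdown NPC they numbered 0 under every alternative run. For the difference of effects the count was 0, and 1 with the filter on low values, 1 with the intensity trend, 2 with array weights and 0 to 1 with 1 array left out. Apart from Rrm1 in ESC and E2f1 and Mcm7 in control cells, the replicate blocks changed no call of a member that was followed.

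The G2/M median in knockdown ESC was -0.051 with the covariate and -0.11 to -0.065 with 1 array left out, and in knockdown NPC it was -0.030 to 0.023 with 1 array left out. The G1/S median in knockdown NPC was 0.071 without replicate 2 of both control groups, and 0.071 to 0.16 with 1 array left out. The G2/M median of the difference of effects ranged from 0.054 to 0.14 with 1 array left out. From control ESC to control NPC, the G2/M median was -0.46 without replicate 2 of both control groups and -0.58 to -0.47 with 1 array left out. From knockdown ESC to knockdown NPC, the G1/S median was -0.37 with median centring. There the G2/M median was -0.40 with the covariate, -0.42 with Mybl2 counted with G1/S, and -0.53 to -0.40 with 1 array left out. The gap between the G2/M and G1/S medians was -0.050 with the covariate, -0.093 with Mybl2 counted with G1/S, and -0.23 to -0.061 with 1 array left out. The causes were not tested. Members whose change was smaller than its SE were not followed.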
